A study of Mus musculus with 28 samples.

Results

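Genes of the RGS family (regulators of G protein signalling), 8 in all, were followed while mouse Pre-B cells were converted into macrophage-like cells. The members were taken by symbol from the RNA table: Rgs1, Rgs2, Rgs3, Rgs10, Rgs14, Rgs16, Rgs18 and Rgs19, 8 of the 21 Rgs genes among its 55450 rows. All fragments listed in contact with the Rgs2 promoter fragment were added. The cells were C10, a line derived from HAFTL Pre-B cells that carries a CEBPalpha-ER transgene. It encodes rat C/EBPα, a myeloid transcription factor, fused to the hormone-binding domain of the estrogen receptor. All groups carry this transgene, and all come from 1 cell line. RNA-seq was done with 3 biological replicates at each of 4 times (0h, 1h, 12h, and 48h) of treatment with 100 nM β-estradiol, 10 nM IL-3 and CSF-1. IL-3 and CSF-1 were given together with β-estradiol, so the time points cannot tell apart the transgene from the cytokines. Promoter Capture Hi-C (PCHi-C), which finds the HindIII restriction fragments that lie close to captured promoter fragments in the nucleus, gave 1 list per time point from 2 merged replicates.

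RGS proteins end signals from G protein-coupled receptors. An activated receptor loads GTP onto a G alpha subunit, which separates from the G beta and gamma subunits, and both parts act on effectors such as adenylyl cyclases and phospholipase C beta. RGS proteins speed up GTP hydrolysis by G alpha and so switch the signal off. In leukocytes they are best known for limiting responses to chemokines and other chemoattractants.

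The promoter of Rgs2 is shown here because its fragment is the one whose contacts were followed. It is printed beside the promoters of Rgs3 and of Rgs13, an Rgs gene whose promoter fragment was in contact with that of Rgs2. RefSeq promoters (GRCm38.p6) were found for 5 of the 8 members, and Rgs1, Rgs14 and Rgs18 had no entry. Each line gives the 250 bases before the start site, on the strand of the gene. The windows are chr1:144004150-144004399 (minus strand) for Rgs2, chr4:62559597-62559846 (plus strand) for Rgs3 and chr1:144177373-144177622 (minus strand) for Rgs13. Capitals mark matches, on either strand, to a C/EBP motif (TTGCNNAA), a PU.1 motif (GAGGAA) or the half-site of a cAMP response element (TGACG). No match overlaps another.
Rgs2: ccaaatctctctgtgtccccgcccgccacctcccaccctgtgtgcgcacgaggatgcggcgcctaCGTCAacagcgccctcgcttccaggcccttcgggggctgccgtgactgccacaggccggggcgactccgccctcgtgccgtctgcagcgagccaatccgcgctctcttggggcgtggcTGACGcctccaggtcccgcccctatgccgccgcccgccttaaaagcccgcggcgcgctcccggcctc
Rgs3: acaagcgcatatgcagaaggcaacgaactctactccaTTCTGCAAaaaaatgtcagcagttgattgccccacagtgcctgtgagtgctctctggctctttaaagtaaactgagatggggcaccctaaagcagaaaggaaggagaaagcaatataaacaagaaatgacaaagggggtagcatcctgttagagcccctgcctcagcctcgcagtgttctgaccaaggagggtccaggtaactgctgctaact
Rgs13: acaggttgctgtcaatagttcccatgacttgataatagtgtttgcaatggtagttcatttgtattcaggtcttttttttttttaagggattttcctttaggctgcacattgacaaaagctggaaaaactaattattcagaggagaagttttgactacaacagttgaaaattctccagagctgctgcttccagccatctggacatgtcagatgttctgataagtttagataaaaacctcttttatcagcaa
Rgs2 has 2 half-sites of the cAMP response element, which begin 185 and 67 bases before the start, and no match to the C/EBP or PU.1 letters. The half-site occurs in 17.8% of the 32851 promoters of the table over the same length. Rgs3 has 1 C/EBP match in the promoter printed, 213 bases before the start, a motif found in 9.56% of promoters. Another Rgs3 promoter, not printed (chr4:62619422-62619671, plus strand), has no C/EBP match and 1 PU.1 match, 209 bases before its start. Rgs13 has no match, and the PU.1 letters occur in 23.3% of promoters. By base composition the windows differ, with 72.4% G and C in Rgs2, 48.4% in Rgs3 and 36.0% in Rgs13.

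RNA levels are given as scaled TPM. TPM are a level per length of transcript, scaled to the same total in each library. They were divided by a median-of-ratios size factor, since a pair of overlapping genes at a ribosomal RNA locus took 70.3% to 82.9% of the TPM of a library. TPM keep no record of depth, so no counting interval is given. Size factors averaged 0.906 in the 0h libraries, 1.43 in those of 1h, 1.15 in those of 12h and 0.681 in those of 48h. Left as deposited, TPM shift the median of all genes by 0.59 (log2) at 1h, 0.34 at 12h and -0.18 at 48h against 0h. Tests are from limma over 16415 genes, with Benjamini-Hochberg adjusted p-values. A gene is called higher or lower with an adjusted p under 0.05 and a change of over 2-fold. This split of calls depends on the scaling: at 1h against 0h 672 genes were higher and 463 lower, and with TPM as deposited 2746 and 178. At 48h against 0h it was 3216 and 2893, and as deposited 2217 and 3793. At 12h against 0h it was 1972 and 1546, and as deposited 2903 and 944. At 12h against 1h it was 1269 and 923, and as deposited 902 and 1745. At 48h against 12h it was 1242 and 1270, and as deposited 582 and 3910. The labels call the replicates biological and do not say that they were separate cultures, so p-values measure the spread between these libraries.

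The identity of the cells was checked with marker lists. The summed level of 8 Pre-B cell markers lay between 307 and 332 scaled TPM at 0h and between 39.2 and 47.2 at 48h. Of these 8, 7 still averaged above 0.1 at 48h, and Rag1 was at 0 then. The sum of 8 macrophage markers lay between 4.08 and 5.06 at 0h and between 311 and 367 at 48h, when all 8 were above 0.1. The sum of 5 granulocyte markers was at most 0.201 at 0h and lay between 39.3 and 62.5 at 48h. Of these 5, 2 averaged above 0.1 at 48h, both among Ly6g, Mmp8 and Camp. Elane and Mpo were at 0 in the 0h and 48h libraries. The T cell, natural killer cell and erythroid lists (5 genes each) stayed at or below 0.220 in every library. The megakaryocyte list of 5 genes, which matters for Rgs18, had a sum of at most 0.259 at 0h and 0.441 at 1h, lay between 0.106 and 1.39 at 12h, and reached at most 0.429 at 48h. Pf4, Ppbp and Gp1bb were at 0 in every library, and Gp9 in those of 48h. The part of these shifts in the levels of the members was not tested. In bulk RNA, a change in the share of cells that express a gene cannot be told apart from a change per cell.

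Rgs1, Rgs2, Rgs14 and Rgs18, 4 of the 8 members, were higher at 48h than at 0h, and no member was lower. The filter asked for a mean of 0.1 TPM or more across the 12 libraries, and it was passed by 6 members, and only these were tested. A gene can pass it through the time point where it is high. Of all genes tested, 19.6% were higher and 17.6% lower in this comparison. The median log2 change of the 6 tested members was 2.13, and that of all genes 0.07. The same 4 genes were higher at 48h than at 12h, when 7.57% of all genes were higher and 7.74% lower. Both comparisons use the 48h libraries. The members were chosen with earlier results of these data known, so these counts and the median are no test of the family. The 2 other Rgs genes tested, Rgs8 and Rgs12, were both lower at 48h than at 0h.

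**Figure D1:**
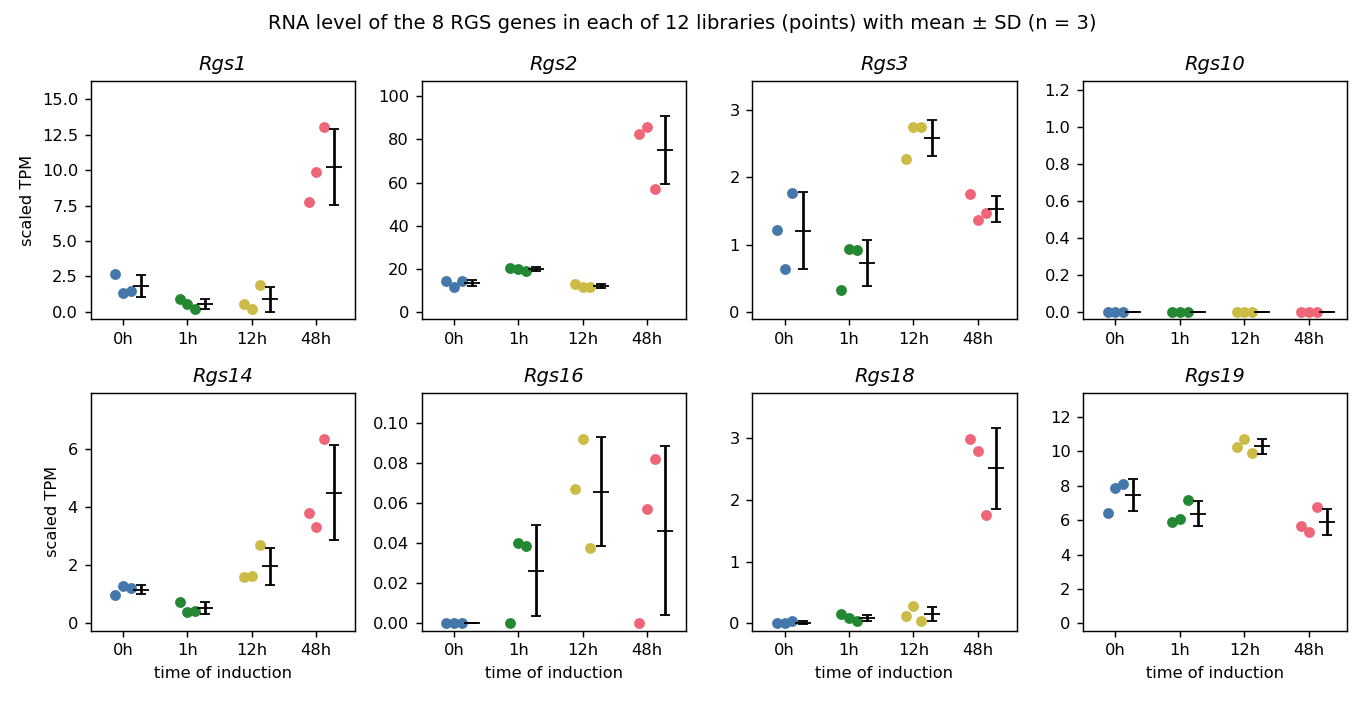
RNA level of the 8 members in scaled TPM (vertical axis, a scale of its own in each panel) at 0h, 1h, 12h and 48h, with 1 point per library and the mean ± SD (n = 3) in black beside them. The 48h libraries of Rgs1, Rgs2, Rgs14 and Rgs18 lie above all others, Rgs3 and Rgs19 are highest at 12h, Rgs16 stays at or below 0.0922 and Rgs10 is at 0 throughout.

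Rgs2 (chr1:143999338-144004161, minus strand, GENCODE M21 on GRCm38) was the most abundant member at every time point on the scaled TPM scale. Its protein acts mainly on G alpha of the q class, and the gene is induced by many hormones and growth factors. The 0h libraries had 14.1, 11.6 and 14.4 scaled TPM, and the 1h libraries 20.5, 20.1 and 18.8. At 12h the level was 13.0, 11.7 and 11.5. At 48h it was 82.4, 85.7 and 56.9. The 48h libraries thus lay far above the rest, and the 1h libraries lay above all 0h and 12h libraries without overlap. The mean was 13.4 ± 1.54 (SD, n = 3) before induction. At 48h it was 75 ± 15.7 (SD, n = 3), and the log2 change was 2.46 (SE 0.16, adjusted p = 3.29e-07, limma). At 1h against 0h it was 0.57 (SE 0.16, adjusted p = 0.0470, limma), past the p threshold but under 2-fold. With TPM as deposited that difference was 1.23 (adjusted p = 0.000968, limma), over 2-fold. From 1h to 12h the log2 change was -0.72 (SE 0.16, adjusted p = 0.00872, limma), also under 2-fold, and with TPM as deposited -1.04 (adjusted p = 0.00202, limma). At 12h the libraries overlapped those of 0h (log2 change -0.15, SE 0.16, adjusted p = 0.538, limma), and the sign depends on the scaling, being 0.19 with TPM as deposited. The order of its means was 12h, 0h, 1h and 48h, and the first neighbours of this order did not differ beyond their spread.

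Rgs1 (chr1:144242296-144249242, minus strand) limits chemokine responses of lymphocytes and is often used as a sign of B cell activation. Its levels at 0h were 2.69, 1.32 and 1.48 scaled TPM. At 1h they were 0.870, 0.557 and 0.186, and at 12h 0.529, 0.231 and 1.90. At 48h they reached 7.74, 9.85 and 13.0. All 1h libraries were below all 0h libraries, the 12h libraries overlapped both, and the 48h libraries were above all others. The log2 change at 48h against 0h was 2.45 (SE 0.62, adjusted p = 0.00675, limma). Against 12h it was 3.76 (SE 0.62, adjusted p = 0.00117, limma). That value rests partly on the 12h libraries: it was 3.17 without 12h replicate 2 and 4.47 without 12h replicate 3. The lower level at 1h (log2 change -1.70, SE 0.62, adjusted p = 0.113, limma) did not pass the test. At 12h against 0h it was -1.30 (adjusted p = 0.137, limma). Leaving out 12h replicate 3 gave -2.01 (adjusted p = 0.0207, limma), and leaving out 12h replicate 2 gave -0.72 (adjusted p = 0.433, limma).

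Rgs14 (chr13:55369732-55384687, plus strand) encodes a larger protein that also binds Ras and Rap proteins and holds a motif that keeps G alpha in its GDP-bound form. It had 0.986, 1.28 and 1.22 scaled TPM at 0h. The 1h libraries had 0.751, 0.389 and 0.441, and the 12h libraries 1.59, 1.62 and 2.71. At 48h the level was 3.81, 3.31 and 6.35. No neighbouring pair of time points overlapped: the libraries were lowest at 1h and lay higher at each later point. The difference at 1h against 0h (log2 change -1.05, SE 0.31, adjusted p = 0.0570, limma) did not pass the test. It was past the threshold when 1h replicate 1 (-1.29, adjusted p = 0.0454) or 48h replicate 3 (adjusted p = 0.0357) was left out. From 1h to 12h the log2 change was 1.73 (SE 0.31, adjusted p = 0.00236, limma). From 0h to 48h it was 1.81 (SE 0.31, adjusted p = 0.000582, limma). The last step, 48h against 12h, was 1.13 (SE 0.31, adjusted p = 0.0227, limma). It did not pass the test with TPM as deposited (0.41, adjusted p = 0.430, limma), nor without 12h replicate 1 (1.00, adjusted p = 0.0808), 12h replicate 2 (1.02, adjusted p = 0.0837) or 48h replicate 3 (0.86, adjusted p = 0.0706). With only the 6 libraries compared the adjusted p was 0.0869. The change was under 2-fold with TPM rescaled without the 20 most abundant genes (0.94) and with 1 added (0.87).

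Rgs18 (chr1:144752683-144775435, minus strand) is known from platelets and their precursors, where it limits activation. It was listed at 0 in 2 of the 0h libraries and had 0.0367 scaled TPM in the third. The 1h libraries had 0.145, 0.0873 and 0.0464, and the 12h libraries 0.125, 0.277 and 0.0455. At 48h the level was 2.99, 2.79 and 1.76. The gene thus went from near 0 to a low level in every 48h library. The log2 change at 48h against 0h was 4.52 (SE 0.40, adjusted p = 3.80e-06, limma), and against 12h 3.47 (SE 0.40, adjusted p = 0.000104, limma). Because the 0h level is so low, the first value depends on the 0.1 added before taking logs: it was 1.78 with 1 added and 7.20 with 0.01 added, past the test in both cases. At 12h against 0h the log2 change was 1.06 (SE 0.40, adjusted p = 0.0700, limma), and it passed the test at 1.39 (adjusted p = 0.0268) without 12h replicate 3. It also passed with 0.01 added (2.95, adjusted p = 0.0194, limma) and without the trend of the spread with level (adjusted p = 0.0490, limma). Of the megakaryocyte markers given above, 4 were at 0 in every 48h library.

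Rgs3 and Rgs19 had their highest level at 12h. Rgs3 (chr4:62559847-62704001, plus strand) encodes several isoforms that act on G alpha of the i and q classes. It had 1.21, 0.636 and 1.77 scaled TPM at 0h and 0.329, 0.933 and 0.921 at 1h. The 12h libraries had 2.28, 2.75 and 2.75, and the 48h libraries 1.75, 1.37 and 1.47. The 12h libraries lay above all others, while 0h overlapped with 1h and with 48h. At 12h against 1h the log2 change was 1.80 (SE 0.39, adjusted p = 0.00664, limma). At 12h against 0h it was 1.14 (SE 0.39, adjusted p = 0.0451, limma), the only member called in that comparison, in which 12.0% of all genes were higher and 9.42% lower. This call was lost when any 1 of 10 libraries was left out, all but 0h replicate 3 and 1h replicate 1. The adjusted p was 0.162 without 0h replicate 2 and between 0.0519 and 0.116 without any of the other 9. It was also lost with only the 6 libraries compared (adjusted p = 0.0734, limma), with 0.01 added before taking logs (adjusted p = 0.0600), without the trend (adjusted p = 0.0536) and with no filter (adjusted p = 0.0727). With 1 added the change was 0.73, under 2-fold, and with TPM as deposited the value was 1.46 (adjusted p = 0.0144, limma). At 48h against 12h the difference of -0.72 (adjusted p = 0.223, limma) did not pass the test, and with TPM as deposited it was -1.42 (adjusted p = 0.0130, limma).

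Rgs19 (chr2:181688419-181693977, minus strand), which acts on G alpha of the i class and is held at membranes by a cysteine-rich stretch, was the second most abundant member at 0h, 1h and 12h. The 0h libraries had 6.42, 7.90 and 8.09 scaled TPM, and the 1h libraries 5.87, 6.10 and 7.21. At 12h the level was 10.3, 10.7 and 9.89, and at 48h it was 5.66, 5.29 and 6.75. Only the 12h libraries stood apart from the other time points. Its log2 change was 0.46 at 12h against 0h (SE 0.15, adjusted p = 0.0324, limma) and 0.68 at 12h against 1h (SE 0.15, adjusted p = 0.00637, limma). From 12h to 48h it was -0.80 (SE 0.15, adjusted p = 0.00226, limma). All 3 differences were under 2-fold. With TPM as deposited the difference of 12h against 1h did not pass the test (0.36, adjusted p = 0.141, limma), and the last was -1.53 (adjusted p = 4.48e-05, limma), over 2-fold. At 1h against 0h the value was -0.22 (adjusted p = 0.385, limma), and its sign depends on the scaling, being 0.43 with TPM as deposited.

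Rgs16 and Rgs10 were not tested. Rgs16 (chr1:153740349-153745468, plus strand), which limits chemokine responses of activated lymphocytes, was listed at 0 in all 0h libraries. Its highest value was 0.0922 scaled TPM, in 1 of the 12h libraries. Rgs10 (chr7:128373621-128418758, minus strand), a small member known from microglia and macrophages, was listed at 0 in all 12 libraries. For comparison, 2 of 83 genes named as ribosomal proteins, Rpl10l and Rpl39l, were at 0 in every library. Of all 55450 genes listed, 25472 had a TPM above 0 in any library. This count of ribosomal protein genes was added after the values of Rgs10 were seen.

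At 1h against 0h, when 4.09% of all genes were higher and 2.82% lower, none of the 6 tested members was called by limma. With 6 genes this count cannot be told apart from the share over all genes. Unadjusted p-values were under 0.05 for 3 of them, Rgs1, Rgs2 and Rgs14, and with TPM as deposited 1 member, Rgs2, was called higher. At 12h against 1h, when 7.73% of all genes were higher and 5.62% lower, Rgs3 and Rgs14 were higher and no member was lower. With TPM as deposited Rgs2 was lower in that comparison. At 48h against 12h, TPM as deposited gave 3 members higher (Rgs1, Rgs2 and Rgs18) and 2 lower (Rgs3 and Rgs19). The comparisons share their libraries, so their calls are not independent of each other.

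**Figure D2:**
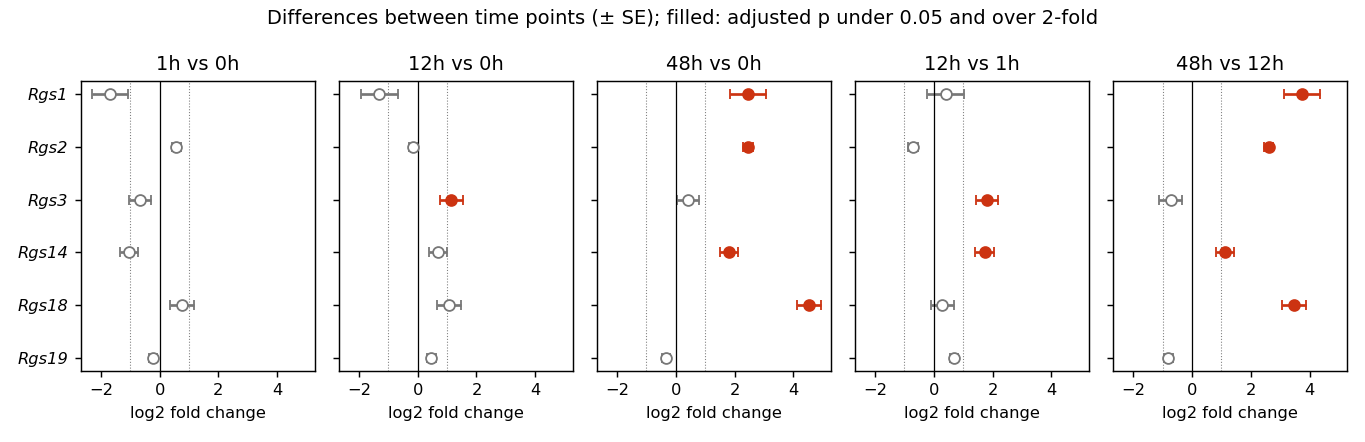
Log2 fold change (horizontal axis) of the 6 tested members in the 5 comparisons, with bars for the standard error. Filled red points have an adjusted p under 0.05 and a change beyond the dotted lines at 2-fold: none at 1h against 0h, Rgs3 at 12h against 0h, Rgs3 and Rgs14 at 12h against 1h, and Rgs1, Rgs2, Rgs14 and Rgs18 in both comparisons of 48h.

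Among the 13 other Rgs genes, 6 were at 0 in all 12 libraries and 2, Rgs8 and Rgs12, passed the filter. Both were lower at 48h than at 0h, a comparison in which 17.6% of all genes were lower. Rgs8, known mainly from neurons, had 1.43, 2.15 and 1.64 scaled TPM at 0h and 0.0327, 0.0715 and 0.314 at 48h. Its log2 change was -3.10 (SE 0.38, adjusted p = 4.27e-05, limma). Rgs12, a large protein with several interaction domains, had 0.677, 1.24 and 1.04 at 0h and 0.0654, 0.529 and 0.273 at 48h. Its log2 change was -1.64 (SE 0.55, adjusted p = 0.0300, limma). The libraries of these time points did not overlap for either gene.

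For each tested member, the genes whose pattern over the 12 libraries was most like its own were looked up among the 9330 genes that averaged 1 TPM or more (9331 for Rgs18). Closest to Rgs2 was Ctse, a cathepsin (Pearson r = 0.971). Closest to Rgs1 were Lpxn (r = 0.958) and Fbxl20 (r = 0.937). For Rgs14 they were Dpysl2 (r = 0.980) and Siglecg (r = 0.976), and for Rgs18 Etnk1 (r = 0.985) and Rtp4 (r = 0.983). These genes had their highest mean at 48h, for example Rtp4 with 23.9 scaled TPM against 0 at 0h. For Rgs3 they were Add1 (r = 0.958) and Eif2ak1 (r = 0.916). For Rgs19 they were B4galnt1 (r = 0.966) and Pfn1 (r = 0.948), and these 4 genes had their highest mean at 12h. The libraries of a time point share their treatment and processing, so these values describe the pattern only.

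The rest of the G protein pathway was described with 7 lists that hold 128 genes beside the members, of which 126 were in the table and 76 were tested. At 48h against 0h, 30 of the 76 were higher and 10 lower, and the median log2 change was 0.55 against 0.07 for all genes. With TPM as deposited it was 23 and 12. At 48h against 12h 14 were higher and 5 lower, but 10 and 14 with TPM as deposited. At 1h against 0h 5 were higher and 3 lower (15 and 2 as deposited). It was 25 and 6 at 12h against 0h (32 and 4 as deposited), and 22 and 4 at 12h against 1h (20 and 5 as deposited). Over all genes, 7.57% were higher and 7.74% lower at 48h against 12h, and 4.09% and 2.82% at 1h against 0h. These shares were 12.0% and 9.42% at 12h against 0h, and 7.73% and 5.62% at 12h against 1h. Of the 30 higher genes at 48h, 19 were receptors. Without the receptors 11 of 45 tested genes were higher and 8 lower, or 24.4% and 17.8%, near the 19.6% and 17.6% of all genes.

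Receptors for chemoattractants and lipids, the inputs to this pathway, had 19 of 31 tested genes higher and 2 lower at 48h against 0h. These are 61.3% and 6.45%, against 19.6% and 17.6% of all genes, and the median log2 change of the list was 2.93. C3ar1, the receptor of complement C3a, was at 0 in 2 of the 0h libraries and at 0.0489 scaled TPM in the third, and had 51.8, 55.9 and 44.2 at 48h. Its log2 change was 8.79 (SE 0.25, adjusted p = 8.97e-10, limma). Ccr1, a receptor of CC chemokines, went from 0.0597, 0 and 0.0244 to 18.0, 17.1 and 13.2 (log2 change 7.0, SE 0.27, adjusted p = 6.47e-09, limma). Both changes start near 0, so their size depends on the 0.1 added. Cxcr4, the CXCL12 receptor that holds precursor cells in bone marrow, was lower at 48h than at 0h. It had 6.61, 5.29 and 4.77 at 0h and 1.98, 2.46 and 2.58 at 48h (log2 change -1.21, SE 0.25, adjusted p = 0.00224, limma). Its means were 8.26 at 1h and 0.533 at 12h, and it was called higher at 48h than at 12h. The other receptor lower at 48h than at 0h was S1pr4.

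Of 11 tested G alpha subunits, 2 were higher and 1, Gnao1, was lower at 48h, or 18.2% and 9.09%, both below the shares over all genes. Gnaq, the q class subunit, had 2.08, 1.97 and 2.99 scaled TPM at 0h and 9.64, 9.39 and 8.41 at 48h (log2 change 1.94, SE 0.20, adjusted p = 1.08e-05, limma). Gnai2, the i class subunit most used by leukocyte chemoattractant receptors, had 27.4, 31.4 and 28.3 at 0h and 58.5, 60.4 and 73.7 at 48h (log2 change 1.14, SE 0.12, adjusted p = 1.45e-05, limma). Gnai2 was far more abundant than Gnaq at both times. Of 12 G beta and gamma subunits, 2 were higher and 1 lower, or 16.7% and 8.33%, also below these shares. Gng2 rose from 6.43, 2.94 and 3.42 to 9.26, 14.5 and 16.5, Gng10 from 5.54, 2.77 and 3.69 to 10.3, 12.7 and 8.0, and Gnb4 fell from 13.2, 13.5 and 13.2 to 5.66, 4.41 and 5.18.

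The receptor kinases, which mark active receptors for arrestin, moved in both directions. Of 6 tested kinases and arrestins, 3 were higher (Grk4, Grk5 and Arrb2) and 2 lower (Grk2 and Grk6). These are 50% and 33.3%, against 19.6% and 17.6% of all genes at 48h against 0h. Grk2 had 36.9, 43.7 and 39.7 scaled TPM at 0h and 17.1, 10.9 and 17.3 at 48h (log2 change -1.43, SE 0.19, adjusted p = 9.27e-05, limma). Grk6 had means of 8.54 at 0h and 3.65 at 48h. Arrb2, which encodes an arrestin, had 6.35, 4.05 and 6.53 at 0h and 19.8, 15.9 and 27.4 at 48h (log2 change 1.87, SE 0.23, adjusted p = 4.30e-05, limma). Grk5 had means of 1.64 and 3.85. Among 6 other regulators of G alpha, Gpsm3 was higher (means 3.51 and 11.6), and Gpsm2 and Axin1 were lower, Axin1 with means of 6.01 and 2.93. By share, 16.7% of these regulators were higher and 33.3% lower. Of 8 effectors 3 (37.5%) were higher, and none was called lower by limma. Adcy7, an adenylyl cyclase of leukocytes, had means of 3.88 and 10.4, and Plcb3, a phospholipase C, had 2.20 and 5.93. The third was Arhgef11. Gnai2, Gng10, Grk5, Adcy7 and Plcb3 were not called with TPM as deposited. Gnao1, Grk4, Gpsm2, Arhgef11 and S1pr4 were named after their values were seen.

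**Figure D3:**
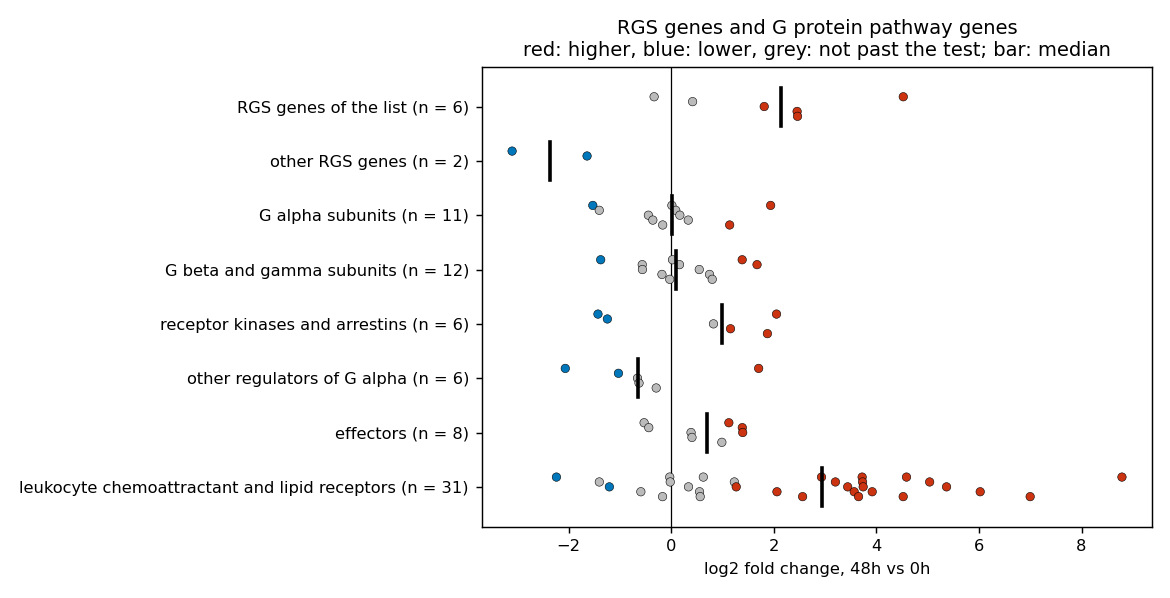
Log2 fold change at 48h against 0h (horizontal axis) of each tested gene of the RGS members and of 7 lists of the G protein pathway, with a black bar for the median of a list. Red genes are higher and blue genes lower with an adjusted p under 0.05 and over 2-fold, and the receptors reach furthest to the right, up to 8.79 for C3ar1.

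Contacts of the Rgs2 promoter fragment, a HindIII fragment of 6439 bases on chromosome 1 (mm10) whose end lies 935 bases before the Rgs2 start site, were read from the PCHi-C lists. It was listed with 54 fragments before induction, and with 44 (1h), 37 (12h) and 61 (48h) later. These are 74 distinct fragments, all on chromosome 1. There is 1 list per time point, so no difference between time points was tested, and the depth behind each list is not known from the files. Rgs2 had more contacts than 98.7% (0h), 97.5% (1h), 96.9% (12h) and 99.1% (48h) of 18175 promoter fragments, and the median over all of them was 4 at each time. The 593 fragments with at least 40 contacts at 0h had medians of 50, 47, 42 and 45 at these times. They were chosen by their 0h count, which sets their 0h median high, so a fall after 0h cannot be read from them. The upper quartile over all 18175 fragments was 12, 12, 11 and 12. The count for Rgs2 was lowest at 12h and highest at 48h. The medians of the 593 fragments and the upper quartile over all fragments were also lowest at 12h.

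The contacts lay on both sides of the gene. Rgs2 is on the minus strand, so fragments at lower coordinates are downstream. Downstream the lists held 28, 30, 25 and 37 contacts at the 4 times in order. Upstream they held 26, 14, 12 and 24. The lower counts at 1h and 12h were thus mainly on the upstream side. Contacts reached from 44.4 kb to 268 kb from the start site downstream and to 352 kb upstream. After induction the nearest fragments were downstream, centred 44.4 kb (1h), 55.8 kb (12h) and 51.3 kb (48h) away. The nearest at 0h, 4.34 kb upstream, was listed only then.

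**Figure D4:**
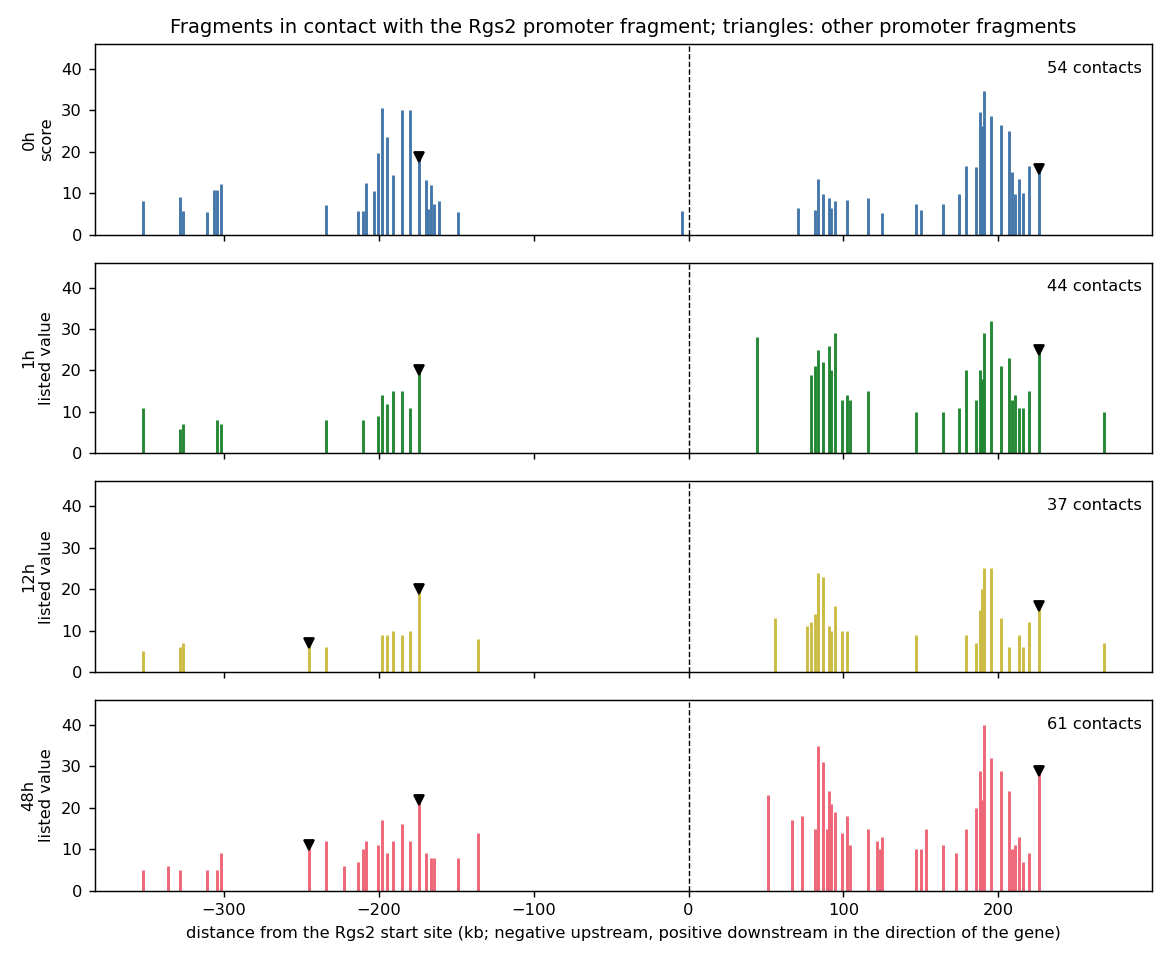
Fragments in contact with the Rgs2 promoter fragment, by the distance of their centre from the Rgs2 start site in kb (horizontal axis), with 1 panel per time point. The height is the CHiCAGO score at 0h and the listed whole number at later times, so heights at 0h cannot be set against the others, and groups of contacts lie on both sides of the gene, among them the highest ones 191 kb and 83.7 kb downstream and 198 kb upstream.

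Of the 74 fragments 29 were listed at all 4 time points, 20 downstream and 9 upstream. Of the 54 contacts of 0h, 46 (85.2%) were listed again at 48h, which is 75.4% of the 61 contacts of 48h. Over all contacts of the lists 55.9% of those of 0h were listed at 48h, which is 53.8% of those of 48h. These shares were not matched by score. The median 0h score was 10.3 for the Rgs2 contacts and 6.81 over the 0h list, nearer to the cut-off of 5. The Rgs2 contacts of 12h were 86.5% shared with 48h, against 60.1% over all contacts. Rgs2 upstream contacts of 0h were least shared with 12h, 10 of 26 (38.5%), against 53.2% over all contacts. With fragments within 10 kb counted as shared it was 20 of 26 (76.9%). Only at 48h 11 fragments were listed, 9 of them downstream, and 6 only at 0h, 5 of them upstream.

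The highest 0h score, 34.8, and the highest value at 48h, 40, belonged to the same fragment, chr1:143811950-143814673, centred 191 kb downstream in the space between Uchl5 and Rgs2. Its values at 1h and 12h were 29 and 25. On the upstream side the highest 0h score, 30.7, was at chr1:144199733-144204424, 198 kb away in intergenic sequence beyond Rgs13, with values of 14, 9 and 17 later. Another downstream group lies nearer to the gene: chr1:143919380-143921470, 83.7 kb away, had a 0h score of 13.4 and values of 25, 24 and 35. Its neighbour chr1:143914915-143919379, 87.0 kb away, had a score of 9.89 and values of 22, 23 and 31.

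The values of the later lists are whole numbers and are the same in both directions for 8082 of 8082 pairs listed in both at 1h, 9184 of 9184 at 12h and 8515 of 8517 at 48h. They were taken as counts of read pairs, which the files do not state. Over the 20 downstream contacts listed at all times, the values summed to 405 at 1h, 280 at 12h and 442 at 48h. Per 1000000 of the sum of each list this is 114, 97.7 and 121. Over the 9 upstream contacts the sums were 112, 84 and 110, or 31.6, 29.3 and 30.0 on that scale. For all 48280 contacts listed at all times the 48h sum was 0.951 times that of 1h and 0.99 times that of 12h on that scale, and for the downstream Rgs2 contacts it was 1.06 and 1.24 times.

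Among these nearer contacts lie the shortest fragments found only at 48h, short enough to print whole. Fragment A is chr1:143914559-143914714, 89.5 kb downstream, with a value of 13 at 48h. Fragment B, next to it, is chr1:143914715-143914914, 89.3 kb downstream, with a value of 15. Both are intergenic. The fragments that adjoin the pair, chr1:143912212-143914558 and chr1:143914915-143919379, were listed at all 4 times. The pair thus lies inside a stretch that was already in contact at 0h. Fragments A and B are read from the plus strand of the RefSeq genome (GRCm38.p6), and capitals mark what the HindIII cut leaves of its site.
Fragment A: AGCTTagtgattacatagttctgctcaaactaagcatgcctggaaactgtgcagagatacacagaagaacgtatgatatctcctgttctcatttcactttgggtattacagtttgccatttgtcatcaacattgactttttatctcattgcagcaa
Fragment B: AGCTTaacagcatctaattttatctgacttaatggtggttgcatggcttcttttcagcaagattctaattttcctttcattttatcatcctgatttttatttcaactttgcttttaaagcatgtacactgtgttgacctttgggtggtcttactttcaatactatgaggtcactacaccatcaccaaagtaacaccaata
All 75 fragments, the Rgs2 fragment included, start at a HindIII site of this genome, and none has such a site inside. G and C make up 37.8% of fragment A and 34.5% of fragment B.

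Other captured promoters were among the contacts. The fragment with start sites of Rgs13 (chr1:144175251-144181178, 174 kb upstream) was listed at all 4 times, with a score of 18.7 at 0h and values of 20, 20 and 22. Rgs13, which is known from germinal centre B cells and mast cells, was listed at 0 in all 12 RNA libraries. The fragment of Rgs1 (chr1:144239425-144258527, 245 kb upstream) was listed only at 12h, with a value of 7, and at 48h, with 11. Rgs1 RNA was higher at 48h, as given above, and at 12h its libraries overlapped those of 0h. The third fragment (chr1:143775715-143780044, 226 kb downstream) holds start sites of Uchl5, a proteasome-bound deubiquitinase, of Trove2, an RNA-binding protein, and of Gm29170 and Gm25663. It was listed at all times, with a score of 15.8 and values of 25, 16 and 29.

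RNA of these neighbours did not move in one direction. Uchl5 had 15.0, 19.9 and 26.2 scaled TPM at 0h and 5.94, 8.49 and 10.6 at 48h, and was lower (log2 change -1.28, SE 0.29, adjusted p = 0.00326, limma). Trove2 had 0.279, 0.123 and 0.147 at 0h and 0.589, 0.615 and 0.505 at 48h, and was higher (log2 change 1.28, SE 0.32, adjusted p = 0.00681, limma), though not with TPM as deposited (0.90, adjusted p = 0.0673, limma). Gm29170 was lower (means 0.521 and 0.170, log2 change -1.21, adjusted p = 0.0143, limma). Gm25663 was at 0 in 7 of the 12 libraries. A fragment with a start site of Glrx2 (chr1:143730547-143740948, 268 kb downstream) was listed at 1h and 12h only, and the log2 change of Glrx2 at 12h against 0h was 0.10 (adjusted p = 0.792, limma).

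Promoter fragments of the other members had fewer contacts than that of Rgs2. The Rgs1 fragment had 13, 10, 12 and 15 contacts at the 4 times in order. Rgs10, at 0 in the RNA, had 21, 27, 25 and 41. Rgs14 had 11, 12, 11 and 7, and Rgs16, whose fragment also holds a start site of C230024C17Rik, had 13, 14, 14 and 12. The first Rgs3 promoter fragment, which holds the promoter printed above, had 25, 31, 23 and 18, and the other one, shared with Gm11209, had 3, 4, 5 and 5. The fragment shared by Rgs19, Lkaaear1 and Tcea2 had 1 contact at 0h and 1 at 48h. No promoter fragment with contacts was found for Rgs18. Contact counts and RNA did not take the same course in each member. Rgs14 had its fewest contacts and its highest RNA level at 48h, and Rgs2 had its most contacts and its highest RNA level then. The list as a whole also held the most contacts at 48h.

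**Figure D5:**
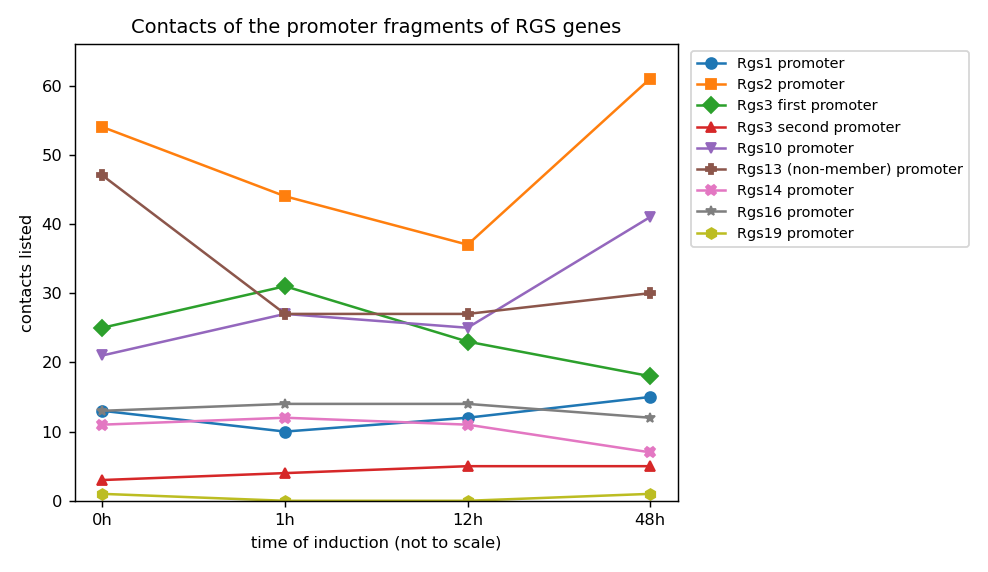
Number of contacts listed (vertical axis) for the promoter fragments of 7 members and of Rgs13 at 0h, 1h, 12h and 48h (horizontal axis, not to scale), from 1 merged list per time point. Rgs2 goes from 54 to 37 at 12h and 61 at 48h, Rgs10 from 21 to 41 and Rgs14 from 11 to 7.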

How the data were processed

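RNA-seq (12 libraries) and Promoter Capture Hi-C (4 merged lists) of C10 cells were used. Hi-C was left out. The authors merged technical RNA-seq replicates, trimmed reads (Trim Galore 0.6.2), mapped them to mm10 (HISAT2 2.1.0) and deposited TPM from RSEM. For PCHi-C the authors called interactions with CHiCAGO at a cut-off of 5. The value of a contact is a score in the deposited 0h list. In the deposited later lists it is a whole number, read here as a count of read pairs. Scores and counts were not compared.

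TPM were divided by median-of-ratios size factors, set on the 11246 genes above 0 in every library. Genes averaging 0.1 TPM or more (16415) were tested as log2(TPM + 0.1) with limma 3.58.1 in R 4.3.3 (trend, 12 libraries in 1 model), with p-values adjusted over all genes of a comparison. Fold changes on this scale understate changes of low genes. On simulated data for 48h against 0h with 16415 genes, the model recovered 96.5% of 200 genes changed by 3 (log2) and called 13 others. The changed genes were drawn from those with a mean log2 level above 0 at 0h, with an independent normal spread. The share recovered therefore does not cover smaller changes or genes as low as Rgs18 at 0h. Other steps used Python 3.11.15, numpy 2.4.6 and pandas 2.3.3.

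A contact was counted once per fragment, in whichever direction it was listed. Genes named are the members, other Rgs genes averaging 0.1 TPM or more, and of each pathway list up to 2 higher and 2 lower called genes with the largest change at 48h against 0h (mean TPM of at least 1). They are also the 2 genes most correlated with each tested member and those with a start site in a contact. For Rgs2, 1 of these correlated genes is not reported here. The members and lists were chosen with earlier results of these data known. Alternatives varied the scaling, pseudocount, filter, trend, thresholds, libraries, replicate block and the definition of contacts.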

Additional observations from a re-analysis of the deposited data

How the results depend on the processing

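The members higher at 48h than at 0h numbered 4, and 3 with a log2 threshold of 2 (without Rgs14) or with a mean TPM of at least 1 (Rgs18 not tested), and 0 were lower under each alternative. Of 715 log2 fold changes of members under alternatives, 659 kept their direction and side of the threshold, 31 lost and 19 gained a call, and 6 changed sign. The sign changed for Rgs1 at 12h against 1h without 1h replicate 3 (-0.10) and without 12h replicate 3 (-0.31), in a range of -0.31 to 0.98 with 1 library left out, and with replicates 1 and 2 only (-0.81), for Rgs18 at 12h against 1h without 12h replicate 2 (range -0.060 to 0.63), and with TPM as deposited for Rgs2 at 12h against 0h (0.19) and Rgs19 at 1h against 0h (0.43). None of these was called. Where the cause of a change is not given by the alternative itself, it was not tested.

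Members higher at 1h against 0h numbered 0, but 1 with no fold change threshold and 1 with TPM as deposited. Members lower there numbered 0, but 1 with a pseudocount of 0.01 and 1 with a mean TPM of at least 1, and between 0 and 1 with 1 library left out. Members higher at 12h against 0h numbered 1, but 2 with no fold change threshold and 0 with a log2 threshold of 2, a pseudocount of 1, no filter or only the 6 libraries compared, and between 0 and 1 with 1 library left out. With a pseudocount of 0.01, with no trend or without 12h replicate 3 the count stayed 1, but the gene was Rgs18 in place of Rgs3. Members lower there numbered 0, and between 0 and 1 with 1 library left out. At 12h against 1h the 2 higher became 0 with a log2 threshold of 2 and 1 with a pseudocount of 1, and the 0 lower became 1 with no fold change threshold and 1 with TPM as deposited. At 48h against 12h the 4 higher became 3 with a log2 threshold of 2, TPM as deposited, TPM rescaled without the 20 most abundant genes, a pseudocount of 1 or only the 6 libraries compared, each time without Rgs14, and with a mean TPM of at least 1, where Rgs18 was not tested. The 0 lower became 1 with no fold change threshold and 2 with TPM as deposited. The 40 pathway genes called at 48h against 0h became 22 with a log2 threshold of 2 and 26 with a mean TPM of at least 1, which tests fewer genes. The 54 Rgs2 contacts of 0h became 28 with a score of at least 10.

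Deviations of libraries with the same replicate number correlated between -0.011 and 0.255, with 7 of 18 pairs over 0.1. Pairs of different numbers correlated between -0.182 and 0.104, with 1 of 36 over 0.1. Libraries of the same number were thus more alike, and the main model holds no term for the replicate number. With the replicate block 4 members were higher at 48h against 0h and 40 pathway genes were called, as without it, and no call of a member changed. Of the 7 pairs 5 were of replicate 3, whose libraries had the lowest share of TPM at the ribosomal RNA locus at each time point, 70.3% to 76.9% against 73.7% to 82.9% in the others. With replicates 1 and 2 only, an alternative chosen after seeing the data, 4 members were higher at 48h against 0h and 34 pathway genes were called. At 12h against 0h the 1 higher was Rgs18, and the 0 lower became 1, Rgs1. At 12h against 1h the 2 higher became 1, Rgs14, and at 48h against 12h 3 were higher, without Rgs14. What these data limit is low levels: Rgs16 and Rgs18 at 0h lie at or under 0.0922 scaled TPM, where the TPM hold no count to set an interval, and contacts rest on 1 merged list per time point.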
